A study of Mus musculus with 4 samples.

Results

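The tumor necrosis factor (TNF) superfamily was examined in RNA sequencing data from mouse cardiac endothelial cells, as the genes of its ligands, of their receptors and of the TRAF adaptor proteins. Members were chosen by gene symbol, with earlier results of these data known. The rule took every row of the deposited tables named Tnfsf or Tnfrsf with a number or Traf1 to Traf7. It added Tnf, Fas, Fasl, Cd40, Cd27, Lta, Ltb, Ltbr and Ngfr. The rule gave 48 rows with 47 symbols among 38087 listed genes: 15 ligand genes, 26 receptor rows and 7 TRAF genes. Tnfrsf22 was listed under 2 Ensembl identifiers. Of the 48 rows, 33 varied between libraries and 15 (31.2%) held a single value in all 4 libraries, as did 62.0% of all listed genes.

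The study compared endothelial cells lacking Gata4, a transcription factor gene of heart development, with cells that kept it, in healthy hearts. All mice were C57BL/6 and carried Tie2-CreERT2, a tamoxifen-inducible Cre driven by Tie2 promoter and enhancer sequence, together with a Cre-dependent eGFP reporter in the Rosa locus. The 2 Gata4 KO libraries came from mice in which loxP-flanked Gata4 was also recombined, and the 2 control libraries from mice without that recombination. Both groups received tamoxifen chow (40 mg/kg body weight) from 4 weeks of age for 4 weeks, and eGFP+ CD31+ cells were sorted from the ventricles at 8 weeks. Tie2 regulatory sequence is also active in some blood cells, and the reporter marks any cell in which the Cre acted. Control libraries have names made of joined numbers, unlike the Gata4 KO libraries, so any pooling of animals cannot be told apart from genotype, and one control carries different numbers in its title and its description. The labels do not say that the libraries are separate animals, so p-values measure the spread between libraries, which may be technical.

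TNF family ligands are mostly membrane-bound trimers that engage receptors on neighbouring cells. Some receptors carry an intracellular death domain that can recruit caspase-activating adaptors, while others bind TRAF proteins, which lead to the transcription factor NF-kB and to stress kinases. Decoy receptors bind ligand without a signalling tail. In endothelium, TNF is known for inducing leukocyte adhesion molecules and chemokines through NF-kB.

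Values are log2 values that the authors deposited for each library, and in every gene they are centred on the median of the 4 libraries. They show differences between libraries of the same gene and no expression level, so levels of different genes cannot be compared. Sequencing depth is unknown. In bulk cells, fewer cells of a type and less RNA per cell cannot be told apart. Gata4 itself had values of 0.48 and 0.14 in controls and -0.14 and -0.46 in Gata4 KO. It was 1.52-fold lower in Gata4 KO (log2 difference -0.61), with a limma adjusted p of 0.663. Xist was at its lowest value in both controls and high in both Gata4 KO libraries (log2 difference 6.00), and the Y-linked gene Ddx3y was at its lowest value in both Gata4 KO libraries, at least 9.62-fold below the controls. Sex therefore cannot be told apart from genotype in the results below. Endothelial markers varied in 8 of 8 genes. Their log2 difference was positive in 7, with a median of 0.16, from -0.03 (Emcn) to 1.03 (Cldn5), and Pecam1, which encodes CD31, had 0.07.

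No member differed between groups beyond the spread of the libraries once all genes were taken into account. By limma with Benjamini-Hochberg adjustment over 14470 genes, 0 members and 0 genes (0.00%) passed 0.05, and the smallest adjusted p among members was 0.383, for Fas. At an unadjusted p of 0.05, 3 of the 33 varying members passed (9.09%, against 8.12% of tested genes), 1 lower and 2 higher in Gata4 KO, while over all tested genes 5.36% passed lower and 2.76% higher. With 2 libraries a group, the 95% interval of a member's log2 difference reached 0.55 to 1.87 to either side, with a median of 0.64. For 30 of the 33 members it included 0.

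The members leaned to higher values in Gata4 KO, by small amounts. Both Gata4 KO values lay above both controls in 11 of the 33 (33.3%), against 15.7% of all tested genes, and below both in 6 (18.2%), against 17.3%. The median log2 difference was 0.20, beside -0.0088 over all tested genes. By role, medians were 0.12 for the 6 varying ligands, 0.03 for the 6 death-domain receptors and 0.14 for the 10 TRAF-binding receptors. They were 0.27 for the 4 decoy and orphan receptor rows and 0.20 for the 7 TRAFs. Those 4 rows include both rows of Tnfrsf22, and their genes are close copies. A difference of at least 0.5 in size was seen in 9 members (27.3%), against 21.5% of tested genes, and of at least 1 in Fas alone, against 5.21%. No p is given for these counts. Without control 1, 14 of 32 members (43.8%) lay above the controls, against 38.4% of tested genes. Endothelial markers had the same direction, with both Gata4 KO values above both controls in 4 of 8 and list means of -0.17 and -0.23 in controls against 0.16 and 0.07, and their part in the members' values was not tested.

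**Figure D1:**
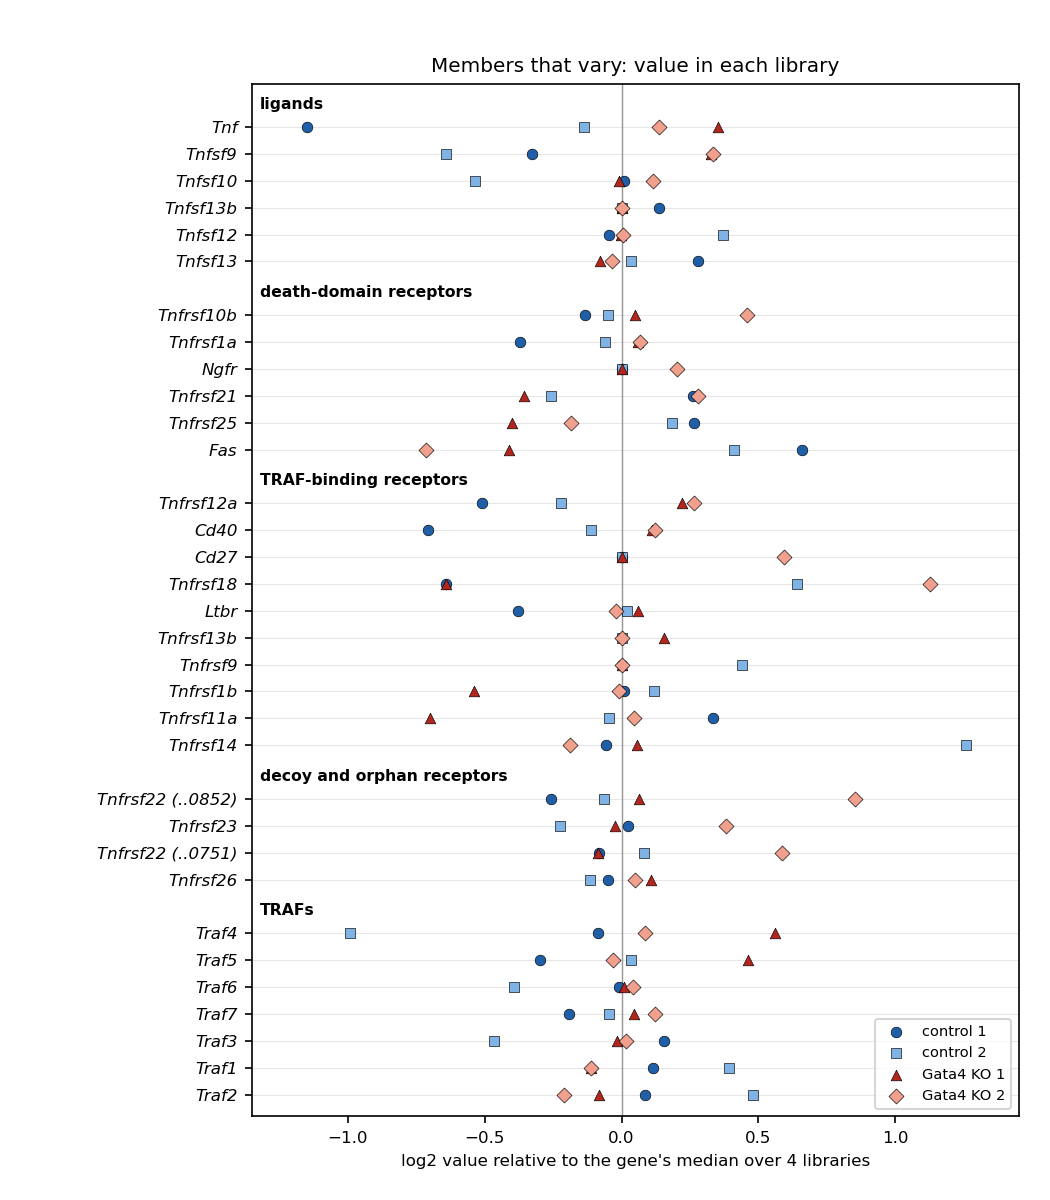
Values of the 33 varying members in each library, by role. The x axis is the log2 value relative to the gene's median over the 4 libraries, circles and squares are the controls, triangles and diamonds the Gata4 KO libraries, and markers can lie on top of each other. Fas has both Gata4 KO values below both controls, while Tnfsf9 and Tnfrsf12a have both above.

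Fas (ENSMUSG00000024778, mm10 chromosome 19, 34290666 to 34327772, protein coding) encodes the death receptor that starts apoptosis through caspase-8 when Fas ligand binds. Its values were 0.66 and 0.41 in controls and -0.41 and -0.71 in Gata4 KO. The groups did not overlap, and the gap between them was wider than the gap within either. Fas was 2.14-fold lower in Gata4 KO (log2 difference -1.10, standard error 0.25, 95% interval -1.73 to -0.47, n = 2 each), with an unadjusted limma p of 0.00664 and an adjusted p of 0.383. With 2 libraries a group, no exact permutation test (two-sided) can go below 0.333, which was the value for Fas. In size this difference exceeded that of 96.0% of tested genes. Without any 1 library it stayed between -1.25 and -0.95. Its ligand gene Fasl held a single value in all 4 libraries.

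Markers of some other cell types moved in the same direction as Fas, and those of others did not. Of 7 T and NK cell markers, 4 held a single value and 3 varied, all 3 tied at their lowest value in some libraries. Their median log2 difference of 0.83 was that of Trac, which was high in Gata4 KO 2 alone (1.72). Nkg7 had 0.88 and Cd3e -0.04. Neutrophil markers had a median of 0.31. Both lists had 0 genes below both controls. Medians were 0.07 for Schwann and neural, -0.01 for pericyte and smooth muscle, -0.19 for B cell and -0.38 for cardiomyocyte markers. Cardiomyocyte markers had a negative difference in all 6 genes, and in 3 of these both Gata4 KO values were lower than either control. Of the 6 pericyte and smooth muscle markers, 2 were lower in this way and 1 was higher. Over all tested genes, 17.3% lay below both controls. Fibroblast markers did so in 8 of 8 genes, with list means of 1.21 and 0.35 in controls and -0.35 and -0.91 in Gata4 KO. Macrophage markers lay below both controls in 6 of 7 (means 0.72 and 0.36 against -0.73 and -0.27), lymphatic markers in 6 of 6 (means 0.80 and 0.86 against -0.57 and -1.30) and platelet markers in 2 of the 3 that varied. None of the fibroblast, macrophage or lymphatic markers held a single value throughout, while the platelet list had 1 that did. What these cell types and cardiomyocytes contributed to the values of Fas and of other lower members was not tested.

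Tnfrsf25 (ENSMUSG00000024793, chromosome 4, 152115934 to 152120119), a death-domain receptor gene known from T cells as DR3, had 0.26 and 0.18 in controls and -0.40 and -0.18 in Gata4 KO. Both Gata4 KO values were lower, by 1.43-fold (log2 difference -0.52, standard error 0.22, 95% interval -1.09 to 0.06), with a limma adjusted p of 0.673. Its ligand gene Tnfsf15 held a single value.

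Other death-domain receptors differed less. Tnfrsf1a, the main TNF receptor gene of endothelium, had -0.37 and -0.06 in controls and 0.06 and 0.07 in Gata4 KO, a log2 difference of 0.28. Tnfrsf10b, the mouse TRAIL receptor gene that signals death, had -0.13 and -0.05 against 0.05 and 0.46, a difference of 0.35. Both lay above both controls, and for both the 95% interval included 0. Without Gata4 KO 2 the difference of Tnfrsf10b was 0.14, and without control 1 that of Tnfrsf1a was 0.13. Tnfrsf21, also known as death receptor 6, overlapped (log2 difference -0.04), with its control values at 0.26 and -0.26. Its sign turned without control 1 (0.22) and without Gata4 KO 1 (0.28). Ngfr, the low-affinity neurotrophin receptor gene, was at its lowest value in 3 libraries and 0.20 above it in Gata4 KO 2.

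The upstream sequences of 2 lower and 2 higher members are shown so that the members with differences can be read beside their promoters. Each is the 250 bases before the RefSeq transcription start (GRCm38.p6), 5' to 3' on the gene's strand, and capitals mark motif matches on either strand. The AP-1 motif searched was TGANTCA. For GATA factors it was AGATAA, and NF-kB was searched by its consensus.
Fas (plus strand, chr19:34290409-34290658): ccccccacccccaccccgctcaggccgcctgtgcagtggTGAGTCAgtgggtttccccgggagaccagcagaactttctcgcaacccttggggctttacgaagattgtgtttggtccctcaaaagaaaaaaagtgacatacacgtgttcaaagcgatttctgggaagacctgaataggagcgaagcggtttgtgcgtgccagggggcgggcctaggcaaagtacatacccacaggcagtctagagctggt
Tnfrsf25 (plus strand, chr4:152116093-152116342, the downstream of 2 listed starts): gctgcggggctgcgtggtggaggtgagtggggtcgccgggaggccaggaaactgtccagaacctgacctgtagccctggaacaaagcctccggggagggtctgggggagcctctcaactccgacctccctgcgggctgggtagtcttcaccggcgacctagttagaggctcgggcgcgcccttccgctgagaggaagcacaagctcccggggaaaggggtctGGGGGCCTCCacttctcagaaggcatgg
Tnf (minus strand, chr17:35202008-35202257): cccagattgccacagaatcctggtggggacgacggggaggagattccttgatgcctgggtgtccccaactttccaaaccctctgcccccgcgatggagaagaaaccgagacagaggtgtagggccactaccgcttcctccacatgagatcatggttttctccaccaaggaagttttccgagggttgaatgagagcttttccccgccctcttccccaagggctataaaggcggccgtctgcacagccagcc
Tnfrsf12a (minus strand, chr17:23677450-23677699): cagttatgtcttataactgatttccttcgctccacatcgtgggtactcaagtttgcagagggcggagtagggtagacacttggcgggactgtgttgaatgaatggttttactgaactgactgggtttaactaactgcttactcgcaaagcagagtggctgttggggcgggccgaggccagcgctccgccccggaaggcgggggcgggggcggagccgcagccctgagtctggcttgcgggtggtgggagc
The Fas window held 1 AP-1 match, at 211 to 205 bases before the start, and the Tnfrsf25 window 1 NF-kB match, at 28 to 19 bases before it. The window of the other Tnfrsf25 start held no match. The Tnf and Tnfrsf12a windows held no match to these letters. Of the lower members not shown, Tnfsf13 held an AP-1 match, and Traf1, Traf2 and Tnfrsf1b held none. Of the higher members not shown, Traf4, Traf6, Traf7 and Tnfrsf1a held no match. No promoter was listed for Tnfsf9, Cd40, Tnfrsf10b, Tnfrsf22 and Tnfrsf26. Of 43 promoters found for 39 member symbols, 5 held the NF-kB motif (11.6%), 6 the AP-1 motif (14%) and 1 the GATA motif (2.33%). The shares over all 32851 promoters of the same length were 7.25%, 6.75% and 9.99%. A match describes the letters and is not evidence of binding.

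Among ligands, Tnfsf9 had the smallest p. Tnfsf9 (ENSMUSG00000035678, chromosome 17, 57105325 to 57107757) encodes the 4-1BB ligand, which costimulates T cells. It had -0.33 and -0.64 in controls and 0.33 and 0.33 in Gata4 KO, so the Gata4 KO libraries were nearly equal and both above the controls. It was 1.76-fold higher in Gata4 KO (log2 difference 0.81, standard error 0.23, 95% interval 0.21 to 1.42), with an unadjusted limma p of 0.0179 and an adjusted p of 0.476. Without any 1 library it ranged from 0.66 to 0.97. An opposite-strand gene, Gm11110, shares 192 exonic bases with it, and the counting strand is not given in the sources used here. Its receptor gene Tnfrsf9 lay at its lowest value in 3 libraries and 0.44 above it in control 2.

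Tnf (ENSMUSG00000024401, chromosome 17, 35199381 to 35202007), the founding cytokine of the family, had -1.15 and -0.14 in controls and 0.35 and 0.14 in Gata4 KO. Both Gata4 KO values were above both controls, but control 1 stood far below control 2. The difference was 1.85-fold (log2 difference 0.89, standard error 0.39, 95% interval -0.12 to 1.90; limma adjusted p = 0.678). Without control 1 it was 0.38 and without control 2 1.40. The neighbouring ligand genes Lta and Ltb, which encode the lymphotoxins, held a single value each.

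Of the other ligands, Tnfsf10, the gene of the apoptosis ligand TRAIL, had 0.01 and -0.53 in controls against -0.01 and 0.11, and the groups overlapped (log2 difference 0.32; 0.04 without control 2 and 0.59 without control 1). Tnfsf13, the gene of the B-cell factor APRIL, was below both controls by a small amount (0.28 and 0.03 against -0.08 and -0.03). Tnfsf12, the gene of TWEAK, overlapped (log2 difference -0.16), and without control 2 it was 0.04. In GENCODE M21, Tnfsf12 and Tnfsf13 share 731 and 983 exonic bases with the gene Tnfsfm13 on the same strand, and Tnfsf13 shares 221 with an antisense gene, so reads cannot be told apart there. Tnfsf13b, the gene of the B-cell survival factor BAFF, was at its lowest value in 3 libraries and 0.14 above it in control 1. The remaining 9 ligand genes (Fasl, Lta, Ltb, Tnfsf4, Tnfsf8, Tnfsf11, Tnfsf14, Tnfsf15 and Tnfsf18) held a single value in all libraries.

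Among TRAF-binding receptors, Tnfrsf12a had the smallest p. Tnfrsf12a (ENSMUSG00000023905, chromosome 17, 23675445 to 23677468) encodes Fn14, the TWEAK receptor, known to be induced by growth factors and injury. It had -0.51 and -0.22 in controls and 0.22 and 0.27 in Gata4 KO, with no overlap. The difference was 1.53-fold (log2 difference 0.61, standard error 0.23, 95% interval 0.01 to 1.21), with an unadjusted limma p of 0.0468 and an adjusted p of 0.601. Cd40 (ENSMUSG00000017652, chromosome 2, 165055627 to 165072948), the receptor gene through which CD40 ligand activates endothelium and antigen-presenting cells, had -0.71 and -0.11 in controls and 0.11 and 0.12 in Gata4 KO. Its log2 difference was 0.52 (standard error 0.28, 95% interval -0.21 to 1.26; limma adjusted p = 0.790). It was 0.23 without control 1 and 0.82 without control 2.

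Tnfrsf1b, the second TNF receptor gene, lay below both controls, with 0.01 and 0.12 against -0.54 and -0.01. Its log2 difference of -0.34 was -0.07 without Gata4 KO 1, and Tnfrsf1a had the opposite sign. The herpesvirus entry mediator gene Tnfrsf14 had -0.06 and 1.26 in controls against 0.06 and -0.19, so control 2 alone was high. Its log2 difference was -0.67 with all libraries and -0.01 without control 2. Tnfrsf11a, the gene of RANK, overlapped (0.33 and -0.05 against -0.70 and 0.05; log2 difference -0.47), and its difference was -0.10 without Gata4 KO 1. Ltbr, the lymphotoxin beta receptor gene, also overlapped (log2 difference 0.20; 0.0023 without control 1).

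Several of the other receptors were tied at their lowest value. Tnfrsf18, the gene of the lymphocyte receptor GITR, was at its lowest value in control 1 and Gata4 KO 1, and 1.28 and 1.77 above it in control 2 and Gata4 KO 2. It shares 414 exonic bases with the antisense gene Gm16008. The groups overlapped, and the log2 difference of 0.24 turned to -0.40 without control 1 and -0.64 without Gata4 KO 2. Cd27, a costimulatory receptor gene of T cells, was 0.59 above its lowest value in Gata4 KO 2 and at that value elsewhere. Tnfrsf13b, the gene of the BAFF and APRIL receptor TACI, was 0.16 above it in Gata4 KO 1 alone. Tnfrsf4, Tnfrsf8, Tnfrsf13c, Tnfrsf17 and Tnfrsf19 held a single value throughout. Of 7 markers of T and NK cells, 4 held a single value and 3 varied, each highest in a different library. Trac was 1.72 in Gata4 KO 2 against -0.07, 0.07 and -0.07 in the other libraries. Nkg7 was 1.28 in Gata4 KO 1 against 0.16 in Gata4 KO 2, and Cd3e was above its lowest value in control 1 alone. What these cells contributed to the receptor values was not tested.

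In the receptor cluster on chromosome 7, both rows of Tnfrsf22 and Tnfrsf23 were highest in Gata4 KO 2, and Tnfrsf26 in Gata4 KO 1. Tnfrsf22 and Tnfrsf23 encode receptors that bind TRAIL without a death domain, and Tnfrsf26 lies beside them. Under ENSMUSG00000090852, Tnfrsf22 had -0.26 and -0.06 in controls against 0.06 and 0.85, and lay above both controls (log2 difference 0.62, standard error 0.33, 95% interval -0.24 to 1.48; limma adjusted p = 0.787). Without Gata4 KO 2 this was 0.23 and without Gata4 KO 1 1.01. Under ENSMUSG00000010751, the identifier that GENCODE M21 holds, it had -0.08 and 0.08 against -0.09 and 0.59, and the groups overlapped (0.25, and -0.09 without Gata4 KO 2). Tnfrsf23 also overlapped (0.28; 0.08 without Gata4 KO 2), while Tnfrsf26 lay above both controls by 0.16. The genes are close copies, and Tnfrsf23 and Tnfrsf26 share exonic bases with the antisense gene E230032D23Rik, so these values are uncertain. Tnfrsf11b, the gene of the secreted decoy osteoprotegerin, held a single value.

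**Figure D2:**
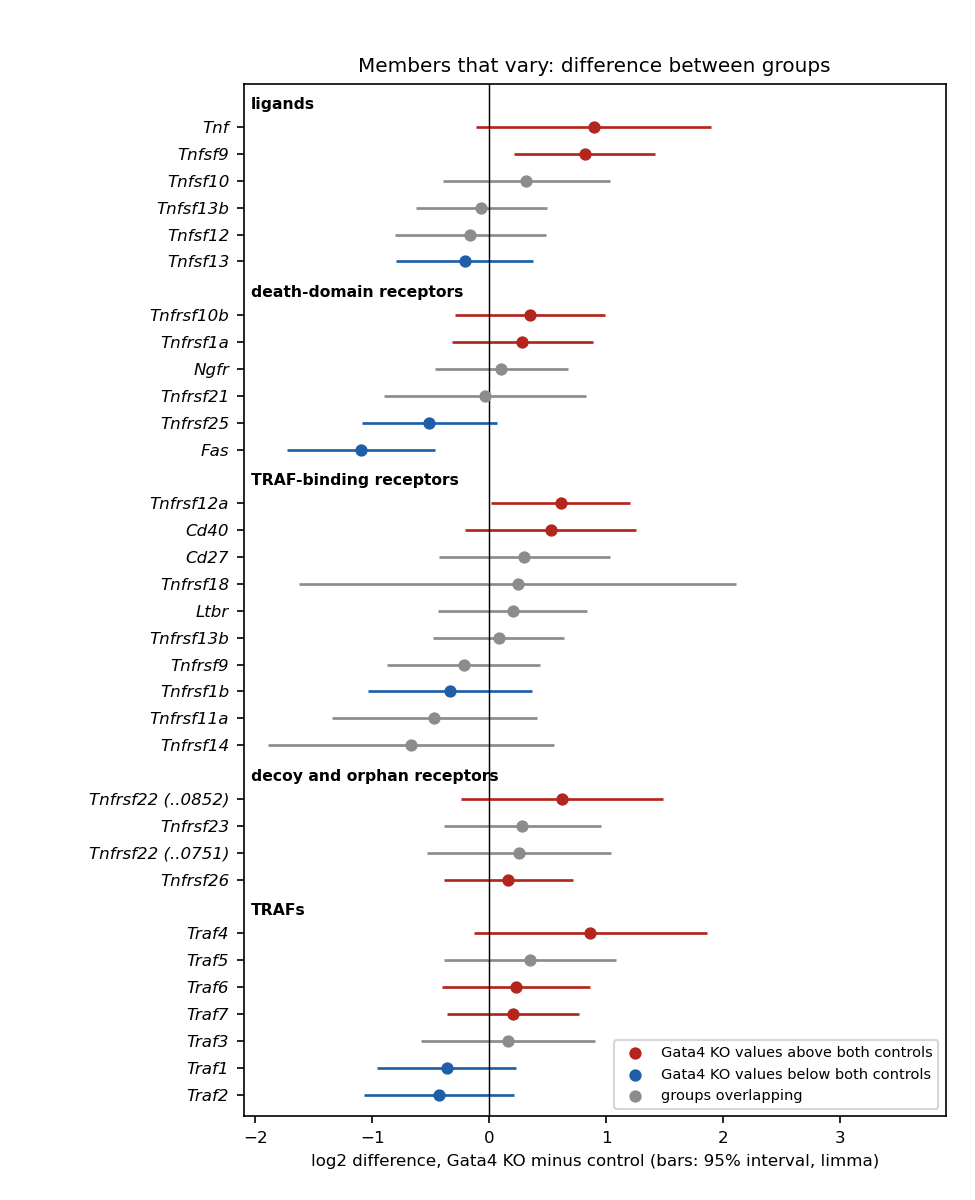
Log2 difference, Gata4 KO minus control, of the 33 varying members by role, with 95% intervals from limma. Red marks members above both controls, blue those below and grey those that overlap; the intervals of Fas, Tnfsf9 and Tnfrsf12a leave out 0.

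All 7 TRAF genes varied, and their differences went both ways. Traf4 (ENSMUSG00000017386, chromosome 11, 78158499 to 78165589), a TRAF that does not act mainly through TNF receptors, had -0.09 and -0.99 in controls and 0.56 and 0.09 in Gata4 KO. It was 1.82-fold higher in Gata4 KO (log2 difference 0.86, standard error 0.39, 95% interval -0.14 to 1.86; limma adjusted p = 0.693). Control 2 was far below the rest, and the difference was 0.41 without it and 1.32 without control 1. Traf6, which links interleukin-1, Toll-like and CD40 receptors to NF-kB, and Traf7 lay above both controls by 0.23 and 0.20. For Traf6 the difference was 0.03 without control 2, and for Traf7 it was 0.13 without control 1. Traf7 shares exonic bases with Rab26 and Caskin1.

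Traf1 and Traf2, which bind each other in receptor complexes, both lay below both controls. Traf2, the adaptor gene through which TNF receptors recruit ubiquitin ligases, had 0.08 and 0.48 against -0.08 and -0.21 (log2 difference -0.43, standard error 0.25; -0.23 without control 2). Traf1, itself an NF-kB target gene, had 0.11 and 0.39 in controls, and both Gata4 KO libraries were tied at its lowest value of -0.11. Controls were thus at least 1.29-fold higher (log2 difference -0.37; -0.23 without control 2), and the spread within Gata4 KO is unknown because of the tie. Traf3 and Traf5 overlapped, with log2 differences of 0.16 and 0.35. Traf3 was -0.15 without control 2, and Traf5, which shares 205 exonic bases with an antisense gene, was 0.10 without Gata4 KO 1.

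Setting ligands beside their receptors gave 27 pairs, with Cd40lg and Cd70 added as the ligand genes of Cd40 and Cd27. Both rows of Tnfrsf22 were counted as pairs with Tnfsf10. In 10 pairs both sides varied, in 11 only the receptor, in 3 only the ligand and in 3 neither. The 10 include pairs of Tnfrsf9, Tnfrsf13b and Tnfsf13b, which were each at the lowest value in 3 libraries. Where both varied, signs could differ within a pair. Tnfsf12 had -0.16 and its receptor gene Tnfrsf12a 0.61, and Tnfsf9 had 0.81 and Tnfrsf9 -0.22. Tnf had 0.89, with Tnfrsf1a at 0.28 and Tnfrsf1b at -0.34. In the TRAIL group, Tnfsf10 and all 4 receptor rows were positive, from 0.25 to 0.62. A ligand can come from cells outside the sort, which these libraries do not measure.

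**Figure D3:**
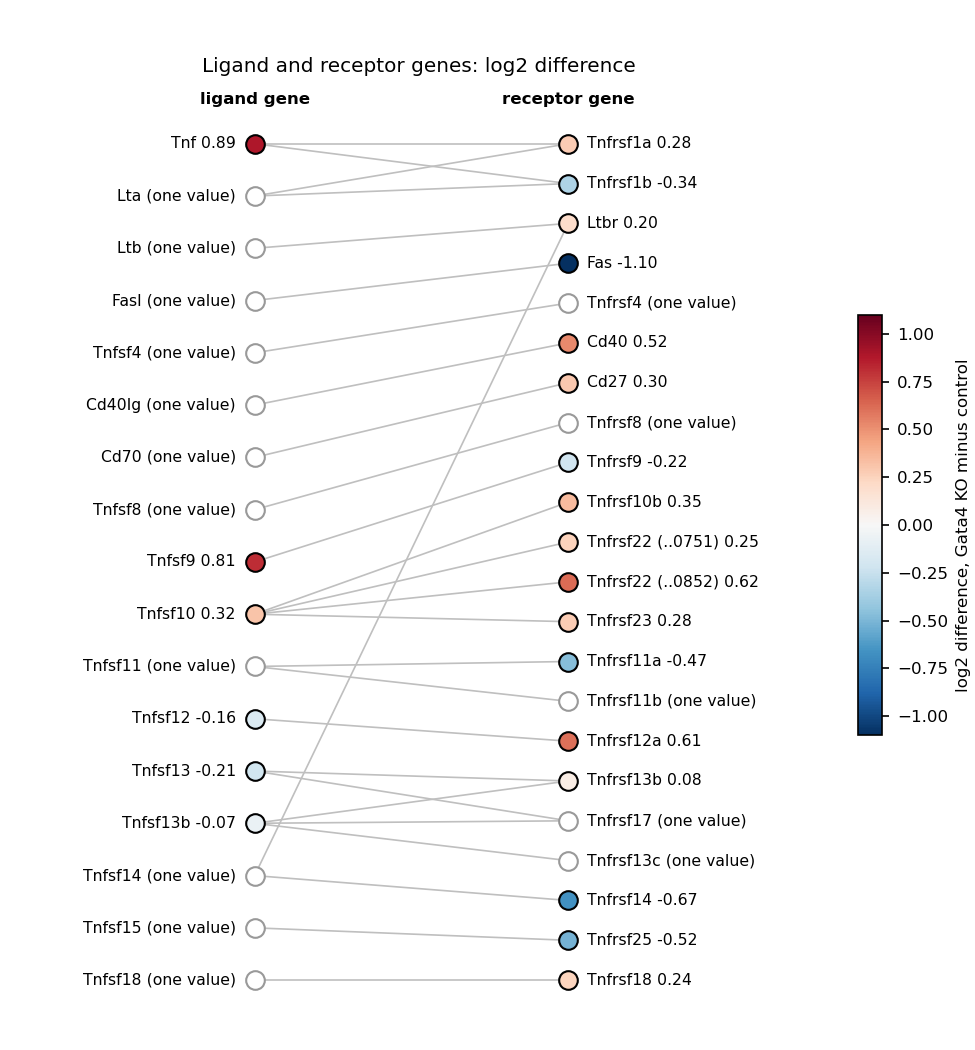
Ligand genes (left) and receptor genes (right), joined by lines where the protein binds. Colour and number give the log2 difference, Gata4 KO minus control, and open circles are genes with a single value in all 4 libraries; Fas, at -1.10, is joined to a ligand gene with a single value.

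Signalling genes downstream of the receptors are set beside the shares over all tested genes, of which 15.7% lay above both controls and 17.3% below. Of 30 adaptors and kinases, 4 lay above both controls and 0 below, with a median log2 difference of 0.03. By p the first were Rnf31 (0.60), the catalytic subunit gene of the linear ubiquitin ligase, Ripk3 (0.39), a kinase gene of necroptosis, Bid (0.35), which links death receptors to mitochondria, and Daxx (0.30). The 10 NF-kB subunit and inhibitor genes had 6 above both controls and 0 below, with a median of 0.28. Bcl3 (0.65), Nfkbiz (0.48), Relb (0.40) and Nfkb2 (0.38) came first. No gene of either list had an unadjusted limma p under 0.05.

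NF-kB response genes had a negative median log2 difference, of -0.28. Of the 20 that varied, 9 lay below both controls, against 17.3% of tested genes, and 1 above, against 15.7%. An unadjusted limma p under 0.05 was reached by 8, all lower, against 5.36% of tested genes. In order of p the list was led by Ptgs2, the cyclooxygenase-2 gene (-2.50, adjusted p = 0.110), Vcam1, a leukocyte adhesion receptor gene (-1.09, adjusted p = 0.383), Bcl2l1, the survival gene of BCL-XL (-1.25, adjusted p = 0.396), and Ccl2, a monocyte chemokine gene (-1.15, adjusted p = 0.424). Icam1, another adhesion gene, had 0.04. None passed over all genes. Several of these genes are also active in fibroblasts and macrophages, whose markers lay below both controls in 8 of 8 and 6 of 7 genes, and the part of those cells was not tested. A list of family genes with other names also held the protease genes Adam10 and Adam17. All 5 of its genes that varied overlapped between groups, and Relt was at its lowest value in 3 libraries. Eda, the ectodysplasin gene on chromosome X, had a log2 difference of 1.20 that came from 2.74 in Gata4 KO 1 alone.

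**Figure D4:**
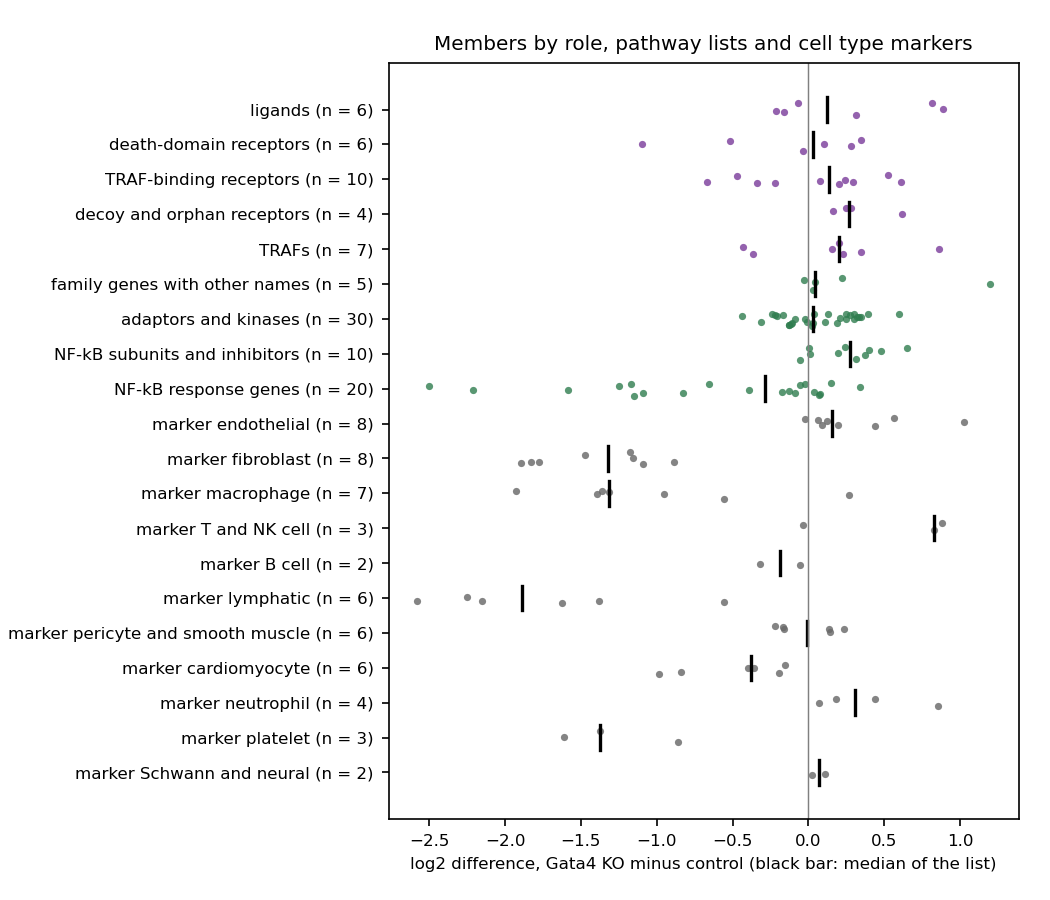
Log2 difference, Gata4 KO minus control, of single genes in the member roles (purple), pathway lists (green) and cell type markers (grey), with the list median as a black bar. NF-kB subunit and inhibitor genes have a median of 0.28 and NF-kB response genes one of -0.28, while fibroblast markers have a median of -1.33.

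**Figure D5:**
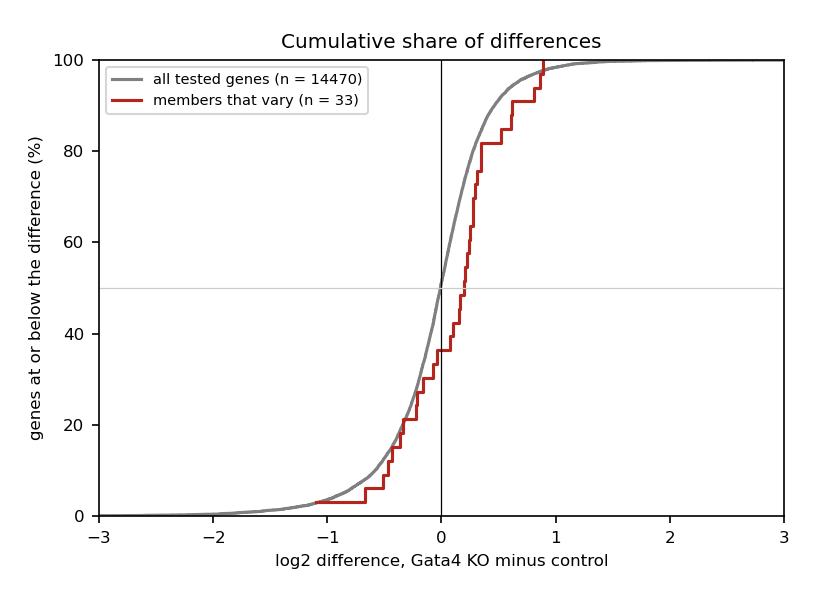
Share of genes (y axis, percent) at or below a log2 difference (x axis, Gata4 KO minus control), for the 33 varying members in red and 14470 tested genes in grey. The x axis shows -3 to 3 and leaves out the few tested genes beyond it; the median is 0.20 for the members and -0.0088 for the tested genes.

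Single libraries weighed on many of these values. Gata4 KO 2 was the highest library in 15 of the 33 varying members (45.5%), against 24.2% of all tested genes, and the lowest in 3 (9.09%), against 18.8%. Tnfrsf10b, Tnfrsf18, Cd27, Tnfrsf23 and both rows of Tnfrsf22 were among the 15. Control 1 was the highest in 6 (18.2%), against 34.2%, and the lowest, untied, in 10 (30.3%), against 14.7%, with Tnf, Cd40, Tnfrsf12a, Tnfrsf1a and Ltbr among the 10. Control 2 was the highest in 6, against 21.0% of tested genes, and the lowest in 7 (21.2%), against 30.4%. Gata4 KO 1 was the highest in 6, against 20.6%, and the lowest in 6, against 18.3%. Ties at the lowest value touched 7 members (21.2%), against 17.8% of tested genes. Of the 33 varying members, 5 were tied in 3 libraries, as were 10.8% of tested genes. The gap between the controls exceeded that between the Gata4 KO libraries in 19 members (57.6%), against 59.8%. It did so in 6 of 6 varying ligands and 6 of 7 TRAFs, and in 7 of 20 varying receptors.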

How the data were processed

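RNA sequencing of 4 libraries, 2 control and 2 Gata4 KO, all from sequencing run 2110, was analysed from the authors' 2 deposited tables of log2 values per gene, which were joined. Per the file headers, the values were exported with fold changes for Ensembl genes, and the authors' signed fold score was not used. The submitters' processing notes name mm10 as the build. The aligner, the quantification, the unit before the logarithm and the normalization are not stated in the material used here. Depth is unknown, so no counting interval was computed. The median over the 4 libraries was 0 in each gene (tolerance 1e-05). Of 38087 genes, 23617 (62.0%) held a single value and were not tested. Equal values occurred at a gene's lowest value in 2576 of 14470 tested genes (17.8%; tolerance 2e-06), so a fold against a group tied there is given as "at least". Among members 7 were tied.

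Groups came from the labels. limma 3.58.1 in R 4.3.3 (lmFit, eBayes without mean trend, two-sided) compared the groups over all tested genes, with Benjamini-Hochberg adjustment and a threshold of 0.05. The code was tested on simulated data. Alternatives were a mean trend, leaving out tied genes, centring each library and leaving out each library. A gene's mean of centred values is not an expression level, so the trend was kept out of the reported fit. Members whose groups did not overlap with a log2 difference of at least 0.5, or with an unadjusted p under 0.05, are given in full; pathway genes are given by count with the first 4 by p. Coordinates are GENCODE M21 (GRCm38), which held 47 of the 48 member rows; upstream sequences are RefSeq. Members and lists were chosen with earlier results of these data known. Median log2 differences of the marker lists were 0.16 for endothelial, -1.33 for fibroblast, -1.31 for macrophage, -1.89 for lymphatic, -1.37 for platelet, 0.83 for T and NK cell, -0.19 for B cell, -0.01 for pericyte and smooth muscle, -0.38 for cardiomyocyte, 0.31 for neutrophil and 0.07 for Schwann and neural markers.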

Additional observations from a re-analysis of the deposited data

How the results depend on the processing

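The number of genes called over the whole table was 0 as reported, 27 with a mean trend, 51 without tied genes and 7 with each library centred on its median, and 0 without any 1 library; under each of these settings 0 members were called. Members at an unadjusted p under 0.05 numbered 3, and from 1 (without Gata4 KO 2) to 8 (without control 1) when a library was left out, with 6 without control 2; the shares over all tested genes were 4.48%, 13.1% and 13.1%, beside 3.23%, 25% and 18.8% of members. Members above both controls numbered 11, and from 14 to 18 (without Gata4 KO 1) when a library was left out, where 25.6% to 38.4% of tested genes lay above. Members below both controls numbered 6, 5 without tied genes (18.3% of tested genes) and from 7 to 9 when a library was left out, where 28.6% to 42.6% of tested genes lay below. The median log2 difference of the members ranged from 0.11 to 0.22 over all alternatives, beside -0.06 to 0.07 over all tested genes. Without control 1 it was 0.15 for the members and 0.07 over all tested genes. The sign held whichever library was left out in 23 of 33 members. Another 5, which differed from their lowest value in a single library, had no difference without it. The sign turned in Tnfrsf18 (-0.64 to 1.13 over the libraries left out), Tnfrsf21 (-0.36 to 0.28), Tnfrsf22 under ENSMUSG00000010751 (-0.0862 to 0.59), Tnfsf12 (-0.37 to 0.0441) and Traf3 (-0.15 to 0.47); the cause was not tested. No paired analysis was possible because the labels give no number that ties a control to a Gata4 KO library. With 2 libraries a group, even Xist, at a log2 difference of 6.00, had a limma adjusted p of 0.0582.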
